A study of Mus musculus with 11 samples.

Results

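Gja5, Gja4, Notch4, Nos3, Sema3g, Sox17, Efnb2, Hey1 and Dll4 are 9 genes known for their expression in the endothelium of arteries, and their levels were followed in bone marrow mesenchymal stromal cells of ANXA5 knockout, ANXA2 knockout and wild type mice. They were taken as arterial genes from textbook knowledge, with their values in these libraries already known, so what is given for them below is a description, and where calls of tests across all genes are counted for them, the counts support nothing. All 9 were among the 18712 genes present in both deposited tables. The cells were primary, untreated and of C57/BL6 background, with 4 ANXA5 knockout libraries, 3 ANXA2 knockout libraries and 4 wild type libraries, and the same wild type libraries served both comparisons. The labels give neither the deleted part of each annexin gene nor the animal or culture behind a library, so a p-value here reflects spread among libraries that could be technical replicates. ANXA2 knockout libraries are called 1, 3 and 4 after their columns, whose numbers are not those of the sample titles.

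Arterial endothelium lines vessels that carry blood under high pressure and flow. Its identity rests on Notch signalling: the ligand Dll4 on a neighbouring cell activates Notch receptors, among them the endothelial receptor Notch4, and Hey1 is a transcriptional repressor switched on by that signal. Sox17 is a transcription factor of arterial endothelium, Efnb2 encodes ephrin-B2, the membrane ligand of the venous receptor EphB4, and Sema3g encodes a secreted semaphorin of arterial endothelium. Gja5 and Gja4 encode connexins 40 and 37, the gap junction proteins that couple arterial endothelial cells, and Nos3 encodes the endothelial nitric oxide synthase. Bone marrow holds arteries, capillaries and sinusoids beside its stroma. In bulk RNA, fewer cells of a type and less RNA per cell cannot be told apart.

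The promoters of 4 members are shown because the genes differ in what the libraries gave for them: Gja5, Notch4 and Sema3g stood higher in every ANXA5 knockout library than in any wild type library, and Efnb2 did not. Each is the 250 bases before the gene's annotated start, 5′ to 3′ on the gene's strand, from RefSeq on GRCm38.p6. Capitals mark matches, on either strand, to AGGAAG, a core bound by ETS factors, or ACAAT, a core bound by SOX factors.
Gja5, chr3:97032152-97032401, plus strand: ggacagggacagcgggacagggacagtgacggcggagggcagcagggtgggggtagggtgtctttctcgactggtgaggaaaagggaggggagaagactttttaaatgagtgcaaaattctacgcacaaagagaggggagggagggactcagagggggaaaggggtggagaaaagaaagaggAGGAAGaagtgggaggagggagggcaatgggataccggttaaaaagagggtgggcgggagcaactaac
Notch4, chr17:34564045-34564294, plus strand: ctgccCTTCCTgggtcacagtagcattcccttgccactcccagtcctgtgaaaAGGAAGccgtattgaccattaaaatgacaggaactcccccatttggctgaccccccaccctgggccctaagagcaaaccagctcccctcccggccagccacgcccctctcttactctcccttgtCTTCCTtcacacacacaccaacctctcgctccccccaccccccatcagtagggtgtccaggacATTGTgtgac
Sema3g, chr14:31217623-31217872, plus strand: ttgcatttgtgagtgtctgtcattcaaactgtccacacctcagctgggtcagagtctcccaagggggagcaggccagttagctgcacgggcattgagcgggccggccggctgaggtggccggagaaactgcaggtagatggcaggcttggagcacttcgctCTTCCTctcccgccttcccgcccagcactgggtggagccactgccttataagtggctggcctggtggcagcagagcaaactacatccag
Efnb2, chr8:8661243-8661492, minus strand: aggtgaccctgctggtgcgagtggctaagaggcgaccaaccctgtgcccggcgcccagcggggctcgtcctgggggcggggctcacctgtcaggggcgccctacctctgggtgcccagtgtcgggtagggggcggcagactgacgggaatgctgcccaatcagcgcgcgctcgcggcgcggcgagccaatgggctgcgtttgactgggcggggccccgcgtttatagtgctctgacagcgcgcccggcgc
Of the 9 members, 6 had such a window, and Sox17, Nos3 and Hey1 are named only. AGGAAG was found in 3 of the 6 windows (Gja5, Sema3g and Notch4), against 29.5% of the 32851 promoter windows of the same length. Notch4 held 3 of these matches, beginning 245, 197 and 73 bases before the start. ACAAT was found in 2 of the 6 (Notch4 and Gja4), against 27.7% of all windows. TGGGAA, the core bound by the Notch effector RBPJ, and CACGTG, an E-box, were in 0 of the 6 and in 21.6% and 6.02% of all windows. No matches of different motifs overlapped in these windows, and a match describes letters only.

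The libraries held 23304225 to 35654634 reads over the genes of the tables. Values below are normalised reads, the authors' reads divided by a size factor of each library, and each comparison stands on the scale of its own table. The targeted genes followed the labels. Anxa5 was at 9.24% of its wild type level in ANXA5 knockout cells and Anxa2 at 28.6% in ANXA2 knockout cells, each with p = 0.0286 in an exact two-sided permutation test, the smallest p that these group sizes allow. Of the markers listed for stroma and for blood cells, 14 of 14 each were present in both tables, as were 25 of 25 pan-endothelial genes, so markers of all 3 cell classes were detected.

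Gja5 had the highest ratio between groups of the 9. It was at 78.4, 66.4, 65.1 and 45.9 normalised reads in ANXA5 knockout libraries 1 to 4, against 15.1, 18.1, 5.14 and 6.31 in wild type libraries 1 to 4. All knockout libraries lay above all wild type libraries. The mean was 63.9 ± 13.4 in ANXA5 knockout and 11.2 ± 6.42 in wild type cells (SD, n = 4 each), a ratio of 5.72 and a log2 fold change of 2.56 ± 0.387 (SE). The wild type values rest on 13, 20, 4 and 6 reads. In the ANXA2 table Gja5 was at 15.1, 9.77 and 33.7 in knockout libraries 1, 3 and 4, against 13.8, 16.6, 4.66 and 5.76 in wild type libraries. Only knockout library 4 exceeded the wild type range. The log2 fold change was 0.87 ± 0.549 (SE), and 0.40 without that library.

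Gja4, the other arterial connexin, did not separate the genotypes. It was at 36.3, 17.6, 40.6 and 20.5 in ANXA5 knockout libraries, against 6.95, 10.9, 19.3 and 34.7 in wild type libraries. Wild type library 4 lay above knockout libraries 2 and 4. On the log2 scale the fold change was 0.79 ± 0.472 (SE), with a 95% interval from -0.26 to 1.85, and 0.45 without wild type library 1. In ANXA2 knockout libraries it was at 7.54, 7.11 and 27.6, against 6.36 to 31.7 in wild type libraries, with a log2 fold change of -0.24 ± 0.619 (SE). Leaving out each library in turn gave -0.83 (without ANXA2 knockout library 4) to 0.07 (without ANXA2 knockout library 3).

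Notch4 was at 165, 159.7, 159.4 and 266.1 normalised reads in ANXA5 knockout libraries, against 18.5, 39.0, 46.3 and 73.6 in wild type libraries. The groups did not overlap, and knockout library 4 stood apart above the other 3. The mean was 187.6 ± 52.4 in ANXA5 knockout and 44.4 ± 22.8 in wild type cells (SD, n = 4 each), a ratio of 4.23 and a log2 fold change of 2.17 ± 0.364 (SE). In ANXA2 knockout cells Notch4 was at 56.0, 59.5 and 115.3, against 17.0, 35.6, 41.9 and 67.2 in wild type cells. Wild type library 4 lay above 2 of the 3 knockout libraries. The log2 fold change was 0.99 ± 0.449 (SE), with a 95% interval from -0.03 to 2.0045, and 0.64 without wild type library 1.

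Dll4, the ligand, did not separate ANXA5 knockout from wild type. It was at 177.4, 175.3, 183.0 and 250.6 in ANXA5 knockout libraries, against 86.9, 144.3, 195.5 and 173.6 in wild type libraries. Wild type library 3 lay within the knockout range. On the log2 scale the fold change was 0.43 ± 0.243 (SE), and 0.19 without wild type library 1. For Dll4 the ANXA2 knockout libraries stood at 60.4, 92.4 and 112.3, against 79.5, 131.8, 177.0 and 158.3 in wild type libraries, a log2 fold change of -0.61 ± 0.313 (SE), and -0.36 without ANXA2 knockout library 1. Without wild type library 1 all ANXA2 knockout libraries lay below the wild type ones.

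Hey1, a target of Notch signalling, was close to level in ANXA5 knockout cells. It was at 264.0, 218.8, 253.8 and 257.9 in ANXA5 knockout libraries, against 281.6, 301.2, 204.5 and 219.9 in wild type libraries. The knockout values lay inside the wild type range. The log2 fold change was -0.0031 ± 0.147 (SE). In ANXA2 knockout libraries it was at 114.2, 188.4 and 201.0, against 185.2 to 275.2 in wild type libraries, with a log2 fold change of -0.47 ± 0.235 (SE), and -0.22 without ANXA2 knockout library 1.

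Sox17, a transcription factor of arterial endothelium, was at 103.1, 92.3, 103.8 and 209.6 in ANXA5 knockout libraries, against 5.79, 43.6, 43.7 and 81.0 in wild type libraries. Knockout library 4 was again far above the others, wild type library 1 far below, and the groups did not overlap. On the log2 scale the fold change was 1.90 ± 0.656 (SE), and it was 1.15 without wild type library 1. The ratio of means was 2.92, and the authors' deposited table gave a log2 fold change of 1.55. For Sox17 the ANXA2 knockout libraries stood at 17.2, 50.6 and 44.9, against 5.297 to 73.9 in wild type libraries, with a log2 fold change of 0.24 ± 0.779 (SE). This value was -0.51 without wild type library 1 and 0.71 without ANXA2 knockout library 1, so its direction turned on single libraries.

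Nos3, the enzyme, was at 139.4, 126.5, 170.8 and 316.9 in ANXA5 knockout libraries, against 17.4, 51.7, 41.2 and 70.5 in wild type libraries. All knockout libraries lay above all wild type libraries. The mean was 188.4 ± 87.7 in ANXA5 knockout and 45.2 ± 22.2 in wild type cells (SD, n = 4 each), a ratio of 4.17 and a log2 fold change of 2.097 ± 0.419 (SE). In ANXA2 knockout libraries Nos3 was at 32.3, 70.2 and 62.3, against 15.9 to 64.3 in wild type libraries, with a log2 fold change of 0.49 ± 0.468 (SE). Leaving out each library in turn gave 0.11 (without wild type library 1) to 0.83 (without ANXA2 knockout library 1).

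Sema3g was at 64.3, 73.6, 62.3 and 133.5 in ANXA5 knockout libraries, against 10.4, 16.3, 16.7 and 34.7 in wild type libraries. The groups did not overlap, and library 4 was the highest of each. The mean was 83.4 ± 33.7 in ANXA5 knockout and 19.5 ± 10.5 in wild type cells (SD, n = 4 each), a ratio of 4.27 and a log2 fold change of 2.09 ± 0.368 (SE). For Sema3g the ANXA2 knockout libraries stood at 1.08, 16.0 and 39.8, against 9.54, 14.9, 15.1 and 31.7 in wild type libraries. The lowest of these values rests on 1 read. The log2 fold change was -0.61 ± 0.897 (SE) with all libraries and 0.61 without ANXA2 knockout library 1, so its direction turned on that library. The authors' deposited table gave a log2 fold change of 0.09 for it.

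Efnb2, the ephrin, ran the other way in ANXA5 knockout cells. It was at 700.4, 790.3, 683.1 and 634.6 in ANXA5 knockout libraries, against 742.7, 756.7, 1602.5 and 886.9 in wild type libraries. Knockout library 2 lay above wild type libraries 1 and 2. On the log2 scale the fold change was -0.43 ± 0.219 (SE), and -0.18 without wild type library 3. In ANXA2 knockout libraries Efnb2 was at 2886, 801.5 and 867.5, against 679.1, 691.3, 1451 and 808.8 in wild type libraries. Knockout library 1 was far above every other library. The log2 fold change was 0.55 ± 0.449 (SE) with it and -0.05 without it.

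**Figure D1:**
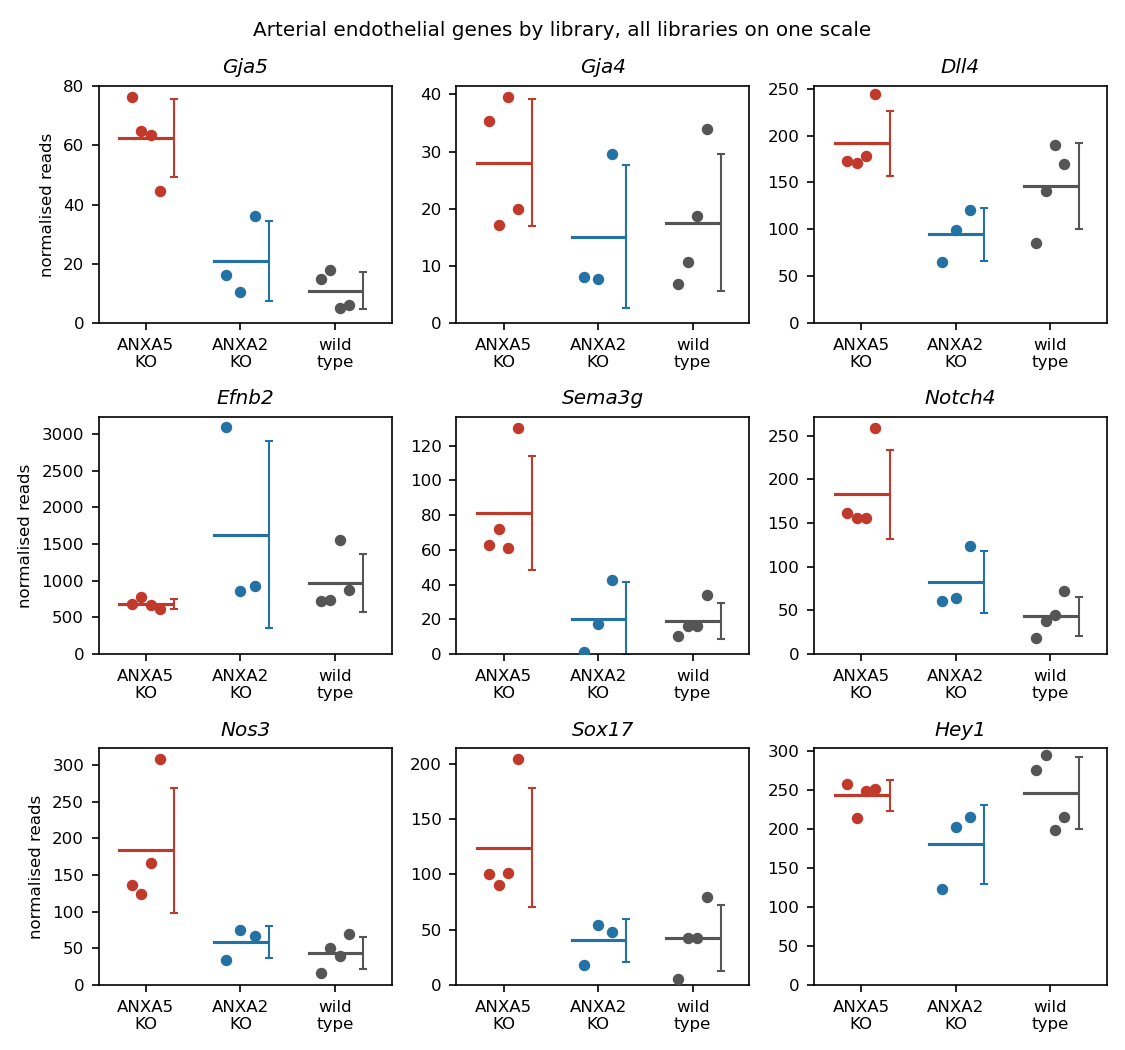
Normalised reads of the 9 arterial endothelial genes (vertical axis, linear from 0, all 11 libraries on a common scale), with 1 panel per gene; points are libraries, horizontal lines the means and bars the SD of ANXA5 knockout (n = 4), ANXA2 knockout (n = 3) and wild type (n = 4), the bar of Sema3g in ANXA2 knockout being clipped at 0. Gja5, Notch4, Nos3, Sema3g and Sox17 lay higher in every ANXA5 knockout library than in any wild type library, while for Gja4, Dll4, Hey1 and Efnb2 these groups overlapped.

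In the ANXA5 comparison 7 of the 9 members had a log2 fold change above 0, against 52% of all 16224 genes tested, and their median was 1.90, against 0.01 for all genes. Without wild type library 1 the members' median was 1.15. For 5 members (Gja5, Notch4, Nos3, Sema3g and Sox17) all knockout libraries lay above all wild type libraries, against 3.01% of all genes, and for 0 members all lay below, against 3.36%. The members were chosen on this contrast, so nothing is read from these counts. By limma with Benjamini-Hochberg adjustment 0 of the 9 passed an adjusted p of 0.05, at which 0.0308% of all genes were called, 0.0185% higher and 0.0123% lower. At an unadjusted p of 0.05, 5 of the 9 passed, against 11.9% of all genes. edgeR on the recovered reads called 0 of the 9 and 0.0308% of all genes, and DESeq2 called 4 of the 9 (Gja5, Notch4, Sema3g and Nos3) and 1.82% of all genes. In the authors' deposited table the same 4 had an adjusted p under 0.05, as had 1.76% of the genes with an adjusted p.

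In the ANXA2 comparison 5 of the 9 had a log2 fold change above 0, against 54.1% of 16123 genes, with a median of 0.24, against 0.02 for all genes. Without wild type library 1 the members' median was -0.41. For 0 of the 9 did the groups separate, against 4.56% of all genes higher and 4.63% lower. limma called 0 of the 9 and 0.112% of all genes, 0.0558% higher and 0.0558% lower, and at an unadjusted p of 0.05 it passed 0 of the 9 and 8.69% of all genes. edgeR called 0 of the 9 and 0.13% of all genes, DESeq2 0 of the 9 and 0.691%, and in the authors' deposited table the calls were none of the members and 0.593% of all genes.

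**Figure D2:**
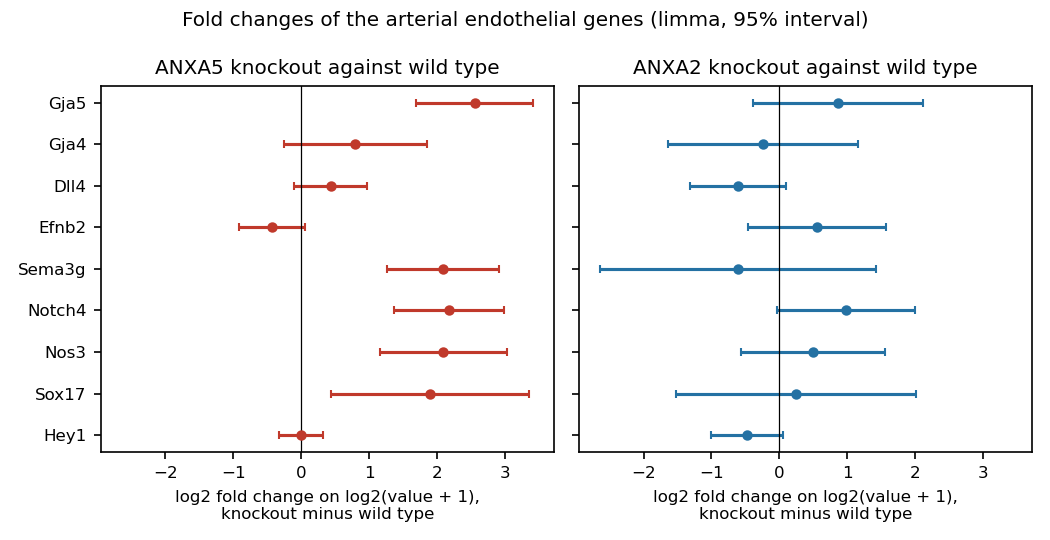
Log2 fold change, knockout minus wild type on log2 (value + 1) (horizontal axis), of each arterial endothelial gene for ANXA5 knockout (left) and ANXA2 knockout (right); points are estimates and bars 95% intervals from limma, and the vertical line is at 0. Between 2.56 for Gja5 and -0.43 for Efnb2 in ANXA5 knockout cells, 5 genes stood at 1.90 or above, while the ANXA2 knockout values ran from -0.61 to 0.99.

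Set directly against each other on a scale common to all 11 libraries, the knockouts had their largest difference among the members in Sema3g. Its means were 81.4 ± 32.8 normalised reads in ANXA5 knockout and 20.3 ± 21.0 in ANXA2 knockout cells (SD, n = 4 and 3), a log2 difference of 2.01. This difference was 3.09 without ANXA2 knockout library 4 and 1.46 without library 1, where Sema3g rests on 1 read. Without ANXA2 knockout library 3 Sox17 differed by 1.90 and Sema3g by 1.88, so the order turned on single libraries. Nos3 differed by 1.65, with 183.8 ± 85.2 in ANXA5 knockout and 58.9 ± 21.4 in ANXA2 knockout cells. Sox17 differed by 1.63, with 124.1 ± 53.6 in ANXA5 knockout and 40.3 ± 19.2 in ANXA2 knockout cells. Every one of these was higher in ANXA5 knockout libraries without overlap. Gja5 differed by 1.60, Notch4 by 1.16 and Dll4 by 1.03, again without overlap. Gja4 differed by 0.92 (1.84 without ANXA2 knockout library 4 and 0.58 without library 3) and Hey1 by 0.45 (0.23 without ANXA2 knockout library 1), with overlap. Efnb2 was at 685 ± 64.5 in ANXA5 knockout and 1629 ± 1271 in ANXA2 knockout cells, a log2 difference of -1.23 that was -0.38 without ANXA2 knockout library 1. In all 6 members were separate and higher and 1 was separate and lower, against 5.96% and 6.6% of the 16791 genes compared. The median of the 9 was 1.16, against 0.01 for all genes, and 1.75 without ANXA2 knockout library 4. Of the 9, 8 had a log2 difference above 0, against 51.3% of all genes. edgeR called 0 of the 9 and 0.262% of all genes, 0.107% higher and 0.155% lower. At an unadjusted p of 0.05 it passed 8 of the 9, 7 higher and 1 lower (Efnb2), and 13.9% of all genes. DESeq2 called 3 of the 9 (Dll4, Nos3 and Gja5) and 2.46% of all genes. The members were chosen with these values known, so nothing is read from these counts.

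The 9 genes did not share a common level. Per kilobase of exon, with lengths from GENCODE vM21, wild type cells held 142 ± 57.6 normalised reads of Efnb2, 75.3 ± 14.2 of Hey1 and 38.03 ± 11.8 of Dll4 (SD, n = 4). The ranges of these 3 did not overlap each other, nor that of Nos3, which followed at 10.7 ± 5.24. Gja4 (10.4 ± 7.13), Sox17 (8.90 ± 6.29), Notch4 (5.37 ± 2.76), Sema3g (4.21 ± 2.26) and Gja5 (1.90 ± 1.10) came next, and from Nos3 down each overlapped its neighbour. The genes that separated ANXA5 knockout from wild type were thus 5 of the 6 with the lowest levels. In ANXA5 knockout cells Efnb2 (99.96 ± 9.40), Hey1 (74.3 ± 5.99), Dll4 (49.8 ± 9.08) and Nos3 (44.5 ± 20.6) still led the order, and Gja5 (10.9 ± 2.29) was still the lowest. In ANXA2 knockout cells the order began with Efnb2 (238 ± 185), Hey1 (55.2 ± 15.4) and Dll4 (24.6 ± 7.29) and ended with Gja5 (3.64 ± 2.34).

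Libraries of a group varied together across the members. Wild type library 1 was the lowest of the wild type libraries for 7 of the 9 genes, and wild type library 4 the highest for 5. ANXA5 knockout library 4 was the highest of its group for 5, and ANXA2 knockout library 4 for 6. The same libraries stood out in the 25 pan-endothelial genes. Their mean log2 value, set to 0 at the wild type mean, was 0.583, 0.777, 1.01 and 1.22 in ANXA5 knockout libraries 1 to 4, against -0.794, 0.0606, 0.206 and 0.527 in wild type libraries 1 to 4. All ANXA5 knockout libraries lay above all wild type libraries in this measure, which weights each gene equally. The summed normalised reads of the same 25 genes, in which abundant genes weigh most, overlapped at 36336 to 44602 in ANXA5 knockout and 37994 to 56991 in wild type libraries. Cd34 alone made up most of these sums, averaging 27526 in ANXA5 knockout and 36780 in wild type cells (-0.39 on the log2 scale). The sums thus say little of the other listed genes. In ANXA2 knockout libraries the mean log2 value ran from -0.138 to 0.449, inside the wild type range of -0.788 to 0.527.

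Among the pan-endothelial genes 23 of 25 were above 0 in the ANXA5 comparison, 12 were separate and higher, and the median log2 fold change was 0.93. limma and edgeR called 0 of the 25, with 17 higher and 1 lower at an unadjusted p of 0.05 by limma, and DESeq2 called 9 of the 25. Pecam1, an adhesion molecule of endothelial junctions, averaged 1095 ± 237 normalised reads in ANXA5 knockout and 594 ± 164 in wild type cells (SD, n = 4 each; log2 fold change 0.90, limma adjusted p = 0.23). Cdh5, the cadherin of endothelial junctions, averaged 279 ± 85.2 in ANXA5 knockout and 116 ± 74.0 in wild type cells (1.55 on the log2 scale, limma adjusted p = 0.331). Kdr, the main VEGF receptor, averaged 1099 ± 422 in ANXA5 knockout and 518 ± 220 in wild type cells (1.13 on the log2 scale, limma adjusted p = 0.342). Flt1, the decoy VEGF receptor, had a log2 fold change of 1.66 (limma adjusted p = 0.229), Tie1 1.75 (0.23) and Emcn, a sialomucin of veins and sinusoids, 1.37 (0.273). Tek, the angiopoietin receptor, was on the other side, with 1734 ± 143 in ANXA5 knockout and 2481 ± 666 in wild type cells (-0.48 on the log2 scale, limma adjusted p = 0.342). Erg, an endothelial ETS factor, was at 0.29.

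With the mean log2 value of the 25 pan-endothelial genes subtracted in each library, Notch4, Nos3 and Sema3g still lay higher in every ANXA5 knockout library than in any wild type library, by 1.28, 1.20 and 1.20 on the log2 scale. Gja5 was higher by 1.66 and Sox17 by 1.002, with overlap. Gja4 was at -0.10 and Hey1 at -0.90, with overlap. Dll4 was separate and lower by this measure, at -0.46, and Efnb2 too, at -1.33. A gene level between the groups comes out lower by this measure, because the pan-endothelial mean was itself higher in ANXA5 knockout libraries. In all, 3 members were separate and higher and 2 separate and lower, against 0.148% and 43.3% of all genes. The members were chosen with their values known, and the risen mean leaves few genes higher by this measure. Nothing is read from these counts. In the ANXA2 comparison Notch4 was separate and higher (0.79) and Dll4 separate and lower (-0.80), against 0.924% and 2.34% of all genes, and the other 7 overlapped. The subtracted mean covers listed genes that differed widely in the ANXA5 comparison. Their log2 fold changes ran from -0.48 (Tek) and -0.39 (Cd34) to 1.75 (Tie1), 1.83 (Robo4) and 1.88 (Ptprb). Before subtraction Notch4, Nos3 and Sema3g stood at 2.17, 2.097 and 2.09. Whether these members rose beyond the highest of the listed genes was not tested.

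**Figure D3:**
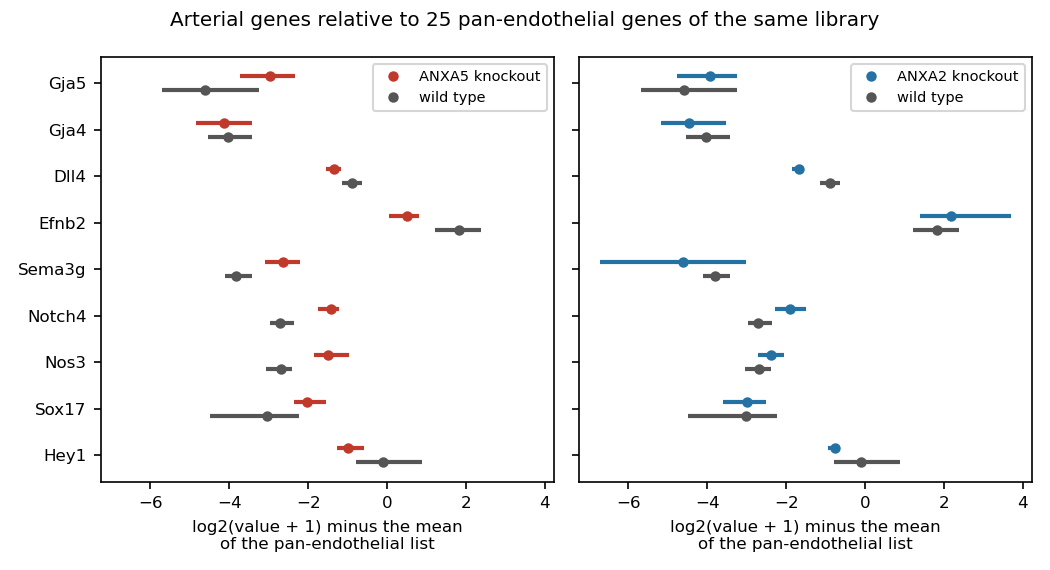
Log2 (value + 1) of each arterial endothelial gene minus the mean log2 (value + 1) of 25 pan-endothelial genes in the same library (horizontal axis, log2 units), for ANXA5 knockout and wild type (left) and ANXA2 knockout and wild type (right); points are group means and bars run from the lowest to the highest library. For Notch4, Nos3 and Sema3g the ANXA5 knockout bars lay above the wild type bars, and for Efnb2 and Dll4 below them.

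Genes of other vessel types were counted in the ANXA5 comparison. Of 14 venous and sinusoidal genes 12 were above 0 with a median of 0.39 and 1 was separate and higher, and of 12 capillary and tip cell genes 10 were above 0 with a median of 0.54 and 4 were separate. Gpihbp1, which anchors lipoprotein lipase on capillary endothelium, averaged 256 ± 99.6 in ANXA5 knockout and 58.1 ± 32.9 in wild type cells (2.29 on the log2 scale, limma adjusted p = 0.217). Ephb4, the receptor of ephrin-B2, averaged 1313 ± 43.0 in ANXA5 knockout and 972 ± 79.6 in wild type cells (0.44, limma adjusted p = 0.207). Of 19 further genes listed as arterial, 12 were above 0, 4 were separate and higher and 1 separate and lower, and their median was 0.06. The 20 such genes present summed to 87617 to 126280 normalised reads in ANXA5 knockout libraries, against 1721 to 2136 for the 9 members. That list thus holds genes more abundant than the members, which were chosen with this contrast known. Depp1 (2.11 on the log2 scale, limma adjusted p = 0.23) and Bmx, a kinase of arterial endothelium (0.49, 0.287), had the smallest unadjusted p of that list. Of 6 lymphatic genes 3 were above 0, with a median of 0.07.

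The families of the members gave no common direction. Of 8 other Notch ligands and receptors 6 were above 0 in ANXA5 knockout cells with a median of 0.79, and those with the smallest unadjusted p were Dlk1 (0.89, limma adjusted p = 0.23) and Jag2 (0.84, 0.299). Of 23 genes that process the Notch receptor 13 were above 0 (median 0.05), and of 15 nuclear partners and targets 9 (median 0.07). Of 9 other gap junction genes 4 were above 0 (median -0.19), among them Gja1, the widespread connexin 43, at 9125 ± 822 in ANXA5 knockout and 11570 ± 1990 in wild type cells (-0.33, limma adjusted p = 0.374). Of 17 other ephrins and Eph receptors 8 were above 0 (median -0.02), and of 13 class 3 semaphorins and receptors 6 (median -0.10), with Sema3a and Sema3c separate and lower at -0.49 (limma adjusted p = 0.217) and -0.42 (0.336). Of 10 SOX genes 5 were above 0 (median -0.05), with Sox18, a relative of Sox17 in endothelium, at 1.28 (limma adjusted p = 0.326). Of 13 genes of nitric oxide metabolism 12 were above 0 with a median of 0.11, and Nos2, the inducible synthase, averaged 42.5 ± 1.90 in ANXA5 knockout and 15.6 ± 8.38 in wild type cells (1.59, limma adjusted p = 0.245). Of 10 flow response genes 4 were above 0 (median -0.06), and of 15 VEGF and angiopoietin genes 8 (median 0.01). In each of the lists of vessel types and families, limma and edgeR called 0 genes, and at most 7 had an unadjusted limma p under 0.05, the 7 being VEGF and angiopoietin genes. DESeq2 called 0 to 3 genes per list, the 3 being capillary and tip cell genes. The lists share genes, which count in each. Ephb4 is in the venous and the ephrin lists, and Flt1 and Tie1 are in the pan-endothelial and the VEGF lists.

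Markers of other cells stood beside these values. Of 14 blood cell genes 13 were above 0 in ANXA5 knockout cells with a median of 0.40, and their mean log2 value ran from 0.239 to 0.519 in ANXA5 knockout libraries, against -0.359 to 0.215 in wild type libraries, without overlap. Their summed normalised reads were 107720 to 142490 in ANXA5 knockout and 57000 to 109810 in wild type libraries. Of 12 mural cell genes 9 were above 0 with a median of 0.46, and the 13 in the table summed to 14432 to 19400 normalised reads in ANXA5 knockout and 11448 to 19059 in wild type libraries, and of 14 stromal genes 7 with a median of 0.05. limma and edgeR called 0 genes of these 3 lists, with 6, 4 and 2 at an unadjusted limma p under 0.05, and DESeq2 called 0 blood, 2 mural and 0 stromal genes. The part of the blood and mural genes in the members' values was not tested.

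In ANXA2 knockout cells the medians of the lists lay between -0.06 and 0.43. The pan-endothelial median was 0.20, with 18 of 25 above 0 and 1 separate and higher, Ecscr, an endothelial surface protein, at 220.0 ± 7.52 in ANXA2 knockout and 137.7 ± 23.7 in wild type cells (SD, n = 3 and 4; 0.69 on the log2 scale, limma adjusted p = 0.423). All 14 venous and sinusoidal genes were above 0 with a median of 0.31, against 54.1% of all genes above 0. Their mean log2 value, set to 0 at the wild type mean, overlapped between the groups. It ran from 0.145 to 0.538 in ANXA2 knockout and from -0.786 (library 1) to 0.530 (library 4) in wild type libraries. Of 10 flow response genes 7 were above 0, with a median of 0.13 and a lowest value of -0.30. Among them Klf4 and Klf2, transcription factors that respond to flow, had log2 fold changes of 1.10 and 0.85 (limma adjusted p = 0.518 and 0.534). Both overlapped wild type, where library 3 stood at 14026 and 20673. Their log2 differences between ANXA5 knockout and ANXA2 knockout cells were -1.20 and -0.97 (edgeR adjusted p = 0.143 and 0.175), and DESeq2 called both. limma, edgeR and DESeq2 called 0 genes of any of the lists in the ANXA2 comparison, with at most 3 in a list at an unadjusted limma p under 0.05.

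**Figure D4:**
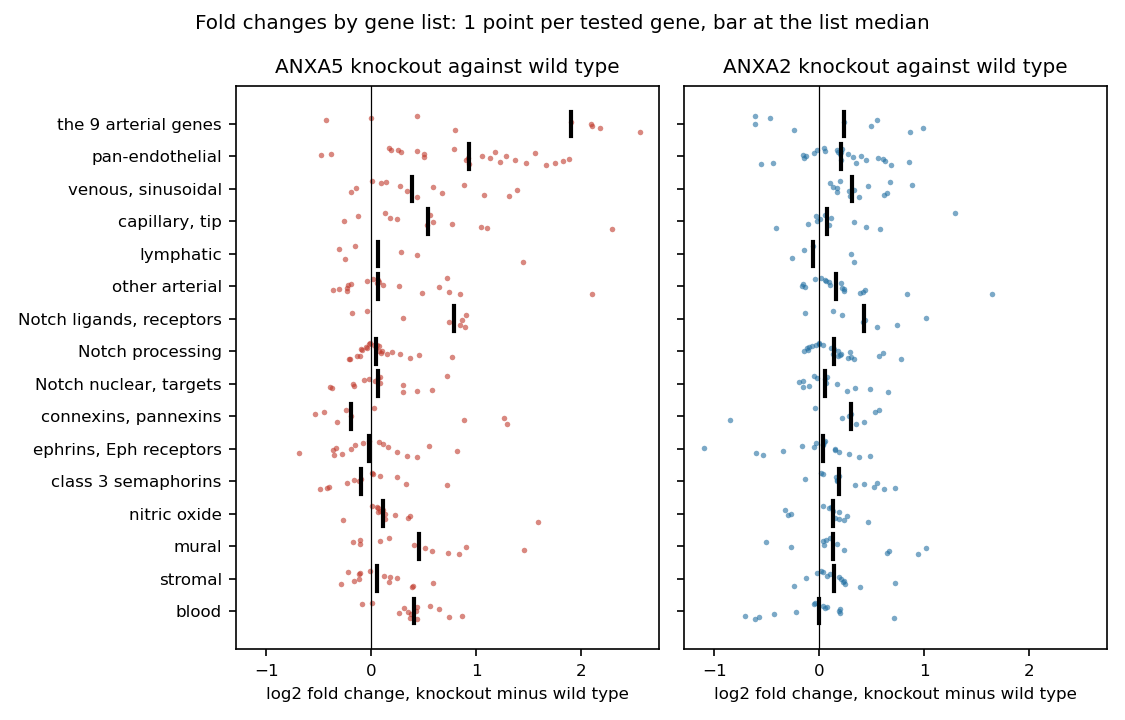
Log2 fold change, knockout minus wild type (horizontal axis), of every tested gene of the 9 arterial genes and 15 other lists (points), with a black bar at each list's median, for ANXA5 knockout (left) and ANXA2 knockout (right). The medians in ANXA5 knockout cells were 1.90 for the 9 arterial endothelial genes, chosen with these values known, and 0.06 for the 19 other arterial genes. They were 0.93 for the pan-endothelial genes and 0.05 for the stromal genes.

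The members were then compared with all genes across the 11 libraries. The 8 genes other than members whose log2 values were most like the mean of the members' standardised log2 values, among 16087 genes with a mean of at least 10, were Podxl (r = 0.978), Arhgef15 (0.977), Pdgfb (0.974), Cbl (0.970), Gpihbp1 (0.961), Brca1 (0.960), Pecam1 (0.953) and Flt1 (0.952). These are Pearson correlations over libraries of 3 genotype groups and are given with no p. Podxl, a sialomucin of endothelium and podocytes, averaged 404 normalised reads in ANXA5 knockout, 121 in ANXA2 knockout and 98.9 in wild type cells. Arhgef15 averaged 194 in ANXA5 knockout, 64.5 in ANXA2 knockout and 58.2 in wild type cells. Of the members, Nos3 (0.934), Sox17 (0.920), Sema3g (0.910), Notch4 (0.904), Dll4 (0.850), Gja4 (0.801) and Gja5 (0.678) followed their own mean, of which each is a part. Hey1 (0.371) did so less, and Efnb2 (-0.566) ran against that mean.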

How the data were processed

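RNA of primary bone marrow mesenchymal stromal cells was sequenced, and groups were read from the labels. Per the submitters' processing notes, the tools included STAR, HTSeq, Trim Galore and DESeq2, and the build was GRCm39; tool versions: not given in the sources used here. The signal the authors deposited is each gene's reads divided by the library's size factor, with a table for ANXA2 knockout (19259 genes) and another for ANXA5 knockout (19801 genes), both holding the 4 wild type libraries. Multiplied back, 100% of values were whole reads within 0.001, at 23304225 to 35654634 reads per library. The tables hold no gene at 0 in any knockout library. Of the wild type libraries, library 3 has 412 genes at 0 in the ANXA5 table and library 4 has 188 in the ANXA2 table. The other wild type libraries of each table hold no gene at 0. Genes without reads in a knockout library or in any of these wild type libraries are thus absent from that table and from the shares over all genes. The log2 fold changes and p-values the authors deposited come from DESeq2 per the file headers, and the score column, the Wald statistic per the file headers, was not used. No per-sample column was left out.

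Each knockout was tested against wild type with limma-trend (limma 3.58.1, R 4.3.3) on log2 (value + 1). Genes entered that reached 10 in a number of libraries equal to the smaller group's size. The added 1 shrinks changes of low genes, while a mean of logs gives weight to a single low library. A log2 fold change of a low gene can thus lie above or below the log2 of the ratio of means. In the ANXA2 comparison Sema3g stood at -0.61 with a ratio of means of 1.06. Two-sided p-values took Benjamini-Hochberg adjustment over all genes, with a threshold of 0.05. The knockouts were compared with edgeR 4.0.16 quasi-likelihood in a joint TMM-scaled fit of recovered reads of the 18712 shared genes. On recovered reads edgeR called 21 genes in the ANXA2 and 5 in the ANXA5 comparison, and limma 18 and 5. DESeq2 1.42.0 was another alternative. Fits were tested on simulated data. SEs and intervals come from limma, intervals at 95%.

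Named were the 9 members, both annexins, of each list the genes with the smallest p (up to 2 where 0 passed), 6 pan-endothelial genes in any case and the 8 genes most like the members. The members and lists were chosen with earlier results of these data known. GENCODE vM21, on GRCm38 and so of another build than the submitters', gave exon lengths. Leaving libraries out of the count of separate members and subtracting the pan-endothelial mean were chosen after seeing the data. Whether the authors' counting used strand is not given in the sources used here. Results for a few genes may not be reported here.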

Additional observations from a re-analysis of the deposited data

Results flagged for a closer look

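Of 131 groups of 4 libraries examined, 11 held a library far from the other 3, and chance gives about 1 in 20. Among the members, ANXA5 knockout library 4 was far above the other ANXA5 knockout libraries for Notch4 at 266 normalised reads (159 to 165 in the others), Sema3g at 133 (62.3 to 73.6), Sox17 at 209.6 (92.3 to 103.8) and Dll4 at 251 (175.3 to 183.0). Without this library the log2 fold changes over wild type were 1.99 for Notch4, 1.84 for Sema3g, 1.63 for Sox17 and 0.31 for Dll4, against 2.17, 2.09, 1.90 and 0.43 with it. Wild type library 3 was far above the other wild type libraries for Efnb2 at 1602.5 (742.7 to 886.9).

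Among the listed genes, ANXA5 knockout library 1 was high for Ccl21a at 79.2 normalised reads, and ANXA5 knockout library 4 for Csf1r at 3976, while wild type library 1 was low for Abcc9 at 446. In the ANXA2 table, wild type library 3 was high for Sox9 at 3009 and Klf2 at 20673, and wild type library 4 for Pf4 at 536.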

How the results depend on the processing

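DESeq2 on recovered reads called 278 genes in the ANXA5 comparison (limma 5), 107 in the ANXA2 comparison (limma 18) and 397 between the knockouts (edgeR 44); the cause was not tested. Leaving out each library in turn gave 4 to 32 genes in the ANXA5 comparison (32 without wild type library 4, 8 without ANXA5 knockout library 3), 8 to 16 in the ANXA2 comparison and 19 to 52 between the knockouts. The members' median log2 fold change ran from 1.15 to 2.34 in the ANXA5 comparison, from -0.41 to 0.61 in the ANXA2 comparison and from 0.98 to 1.75 between the knockouts when each library was left out. Scaling, pseudocount and filter alternatives left all 3 counts within 1.5 times. The median of the ANXA2 comparison was 0.08 with edgeR and 0.49 at a minimum of 50. In the ANXA5 comparison Notch4 and Sema3g passed the threshold in 2 alternatives, DESeq2 and without wild type library 4, and Gja5 and Nos3 in 1, DESeq2. Between the knockouts Dll4, Gja5 and Nos3 passed with DESeq2. Leaving out a library cannot end a separation already complete. In the ANXA5 comparison Dll4 became separate and higher without wild type library 3, and Efnb2 separate and lower without ANXA5 knockout library 2. In the ANXA2 comparison Dll4 was separate and lower without wild type library 1, and Notch4 separate and higher without wild type library 4. Members whose log2 fold change changed sign with libraries left out were Hey1 in the ANXA5 comparison (-0.0964 to 0.0891) and Gja4 (-0.835 to 0.0733), Sox17 (-0.506 to 0.712), Sema3g (-1.54 to 0.611) and Efnb2 (-0.0472 to 0.876) in the ANXA2 comparison. With edgeR, Sema3g (0.0792) and Sox17 (-0.0904) in the ANXA2 comparison also had the other sign. The ANXA2 range of Gja4 leaves out the fits without wild type library 3 or 4, where it was not tested. Among other named genes the sign changed for Anxa2 in ANXA5 knockout cells (-0.00166 with edgeR, -0.0228 to 0.0321 with libraries left out), Anxa5 in ANXA2 knockout cells (-0.0545 to 0.177), Tek (-0.252 to 0.00976), Emcn (-0.209 to 0.386) and Kdr (-0.0694 to 0.600), the last 3 in the ANXA2 comparison.

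Same-numbered libraries of the ANXA5 table correlated at 0.0494, -0.0745, -0.252 and 0.067, and not every library correlated best with its own number. The values thus showed no pairing by number, while the labels do not say whether libraries were paired. With the replicate block 8 genes passed in the ANXA5 comparison, and the members' median was 1.90. No paired analysis was possible for the ANXA2 comparison and between the knockouts because the ANXA2 columns do not carry the numbers of the titles. Low reads limit Gja5, Gja4 and Sema3g most, with 1 to 20 reads in several libraries.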
